A study of Sus scrofa and Bos taurus with 31 samples.

Results

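Chromatin at 10 genes of fast muscle fibres was described in the peak lists of 16 ATAC-seq libraries of pig, 1 from each of 8 tissues in each of 2 animals. The genes were taken by symbol from the RefSeq annotation of the pig assembly Sscrofa11.1, and all 10 were found among 20394 protein-coding genes. Each was measured over its annotated length with 10 kb either side. The animals, P348 and P350, were castrated male Yorkshire littermates aged under a year, and every group was 1 tissue of these 2 pigs: skeletal muscle, adipose, cerebellum, cerebral cortex, hypothalamus, liver, lung or spleen. ATAC-seq cuts open chromatin with a transposase in isolated nuclei, here thawed after cryopreservation, and a peak is a stretch where the cuts exceed the local background. The labels name no particular muscle, and a muscle holds fibres of several types with vessels, connective tissue and satellite cells. More nuclei with an open site and a more open site per nucleus cannot be told apart in such bulk libraries.

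A skeletal muscle fibre contracts when calcium binds troponin on the thin filament and myosin heads pull on actin. Fast fibres build this machinery from their own isoforms and draw on phosphocreatine and glycolysis for rapid energy, whereas slow fibres use another set and oxidative metabolism. The genes of the fast myosin heavy chains stand side by side in mammals, together with embryonic, perinatal and extraocular myosins, and each fibre uses mainly one of them. MEF2, SRF (which binds the CArG box), TEAD factors and the myogenic factors that bind E-boxes are known regulators of muscle promoters.

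The members fall into 4 roles. The fast myosin heavy chains are MYH1 (type 2X; chr12:55225581-55251495), MYH2 (type 2A; chr12:55252974-55278820) and MYH4 (type 2B; chr12:55190545-55216294), all on the minus strand. Their partner in the thick filament is MYLPF, the fast regulatory light chain (chr3:17938129-17941071). The thin filament genes are ACTA1, skeletal alpha-actin (chr14:60412651-60415687), and the fast troponins TNNI2, the inhibitory subunit (chr2:1251566-1253883), TNNT3, which binds tropomyosin (chr2:1297826-1316865), and TNNC2, which binds calcium (chr17:48025621-48026762). ACTN3, the fast alpha-actinin of the Z-disc (chr2:5860386-5873779), and CKM, the muscle creatine kinase (chr6:51704021-51716935), complete the list.

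The 250 bases upstream of the outermost annotated transcription start site (TSS) are shown for the 3 fast myosin genes, whose locus was the most strongly separated. They span chr12:55251496-55251745 for MYH1, chr12:55278821-55279070 for MYH2 and chr12:55216295-55216544 for MYH4, all written 5′ to 3′ on the minus strand, from RefSeq's Sscrofa11.1. The last sequence is the middle 300 bases, chr12:55260580-55260879, of the region with the highest fold at the locus, which lies within MYH2 and upstream of MYH1. Capitals mark matches on either strand to the TATA box TATAAA, the E-box CAGCTG, the TEAD motif CATTCC, the MEF2 motif or the CArG box.
MYH1: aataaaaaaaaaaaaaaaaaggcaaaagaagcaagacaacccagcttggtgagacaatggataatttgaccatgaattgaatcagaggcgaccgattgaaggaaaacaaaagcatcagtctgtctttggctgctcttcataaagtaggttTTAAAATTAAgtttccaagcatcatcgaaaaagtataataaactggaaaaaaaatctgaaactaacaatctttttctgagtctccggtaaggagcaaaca
MYH2: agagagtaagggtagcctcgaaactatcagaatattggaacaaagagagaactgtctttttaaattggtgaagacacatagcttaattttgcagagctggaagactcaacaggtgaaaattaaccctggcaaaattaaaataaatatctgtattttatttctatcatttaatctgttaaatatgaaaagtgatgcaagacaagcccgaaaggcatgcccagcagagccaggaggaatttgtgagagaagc
MYH4: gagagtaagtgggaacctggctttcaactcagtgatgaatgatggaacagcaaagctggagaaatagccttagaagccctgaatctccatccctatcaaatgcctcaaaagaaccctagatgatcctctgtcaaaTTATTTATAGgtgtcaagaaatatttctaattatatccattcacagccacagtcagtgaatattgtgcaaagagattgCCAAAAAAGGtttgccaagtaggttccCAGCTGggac
MYH2 intragenic region: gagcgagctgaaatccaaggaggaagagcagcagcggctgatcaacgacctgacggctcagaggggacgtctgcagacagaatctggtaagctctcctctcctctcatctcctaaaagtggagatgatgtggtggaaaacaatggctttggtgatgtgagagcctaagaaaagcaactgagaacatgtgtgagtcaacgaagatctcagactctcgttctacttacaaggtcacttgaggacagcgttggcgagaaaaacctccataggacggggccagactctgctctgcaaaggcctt

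Of these promoters, MYH4 held 1 MEF2 match, 1 CArG match and 1 CAGCTG match. Its only TATAAA match overlapped the one to MEF2. MYH1 held 1 MEF2 match, and the MYH2 promoter and the intragenic region held no capitals. Over the 9 members whose promoters were searched, all but MYLPF, 3 promoters held a MEF2 match (MYH1, MYH4 and TNNT3), against 2.65% of 20385 promoters of the same length. The gene model of TNNC2 is partial at its 5′ end, so the stretch searched there may not be its promoter. CAGCTG was in 3 (MYH4, TNNI2 and TNNT3), against 13.5%, and the CArG box in MYH4 only, against 1.3%. TATAAA was in 2, MYH4 and TNNI2, against 10.2%, and CATTCC in none, against 10.4%. The wider E-box CANNTG, which includes CAGCTG, was in 6 of 9 against 62.2%, and the intragenic region held 3 where 80.5% of the 83555 regions of at least 300 bases, without unknown bases, that were open in both muscle libraries held at least 1 in their middle. These matches are letters in a window and not bound sites.

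The lists held between 99960 peaks, in muscle of P350, and 217308, in cerebellum of P348, and covered 64.1 to 156 Mb. The peaks of a gene's window were therefore given as peak bases per Mb of all peak bases in the same list. The muscle label was checked with MYOD1, MYF6, MYOG and DES, genes of myogenic regulation and of the muscle intermediate filament. All 4 had both muscle libraries above the 14 others and were higher in muscle by limma, with a median log2 difference of 1.45. Of all genes 17.3% had both muscle libraries above the others, and 29.9% of those tested were higher by limma. Markers of other cells were read the same way. Of 4 smooth muscle genes none rose or fell, with summed levels of 177 and 187 in muscle and 39.0 to 260 elsewhere. Of 4 adipocyte genes ADIPOQ fell, with sums of 125 and 81.7 in muscle and 20.2 to 158 elsewhere. Outside muscle none of the 4 was highest in adipose: ADIPOQ, PLIN1 and CIDEC were highest in a spleen library and LEP in a liver library. Of 4 endothelial genes CDH5 fell, with sums of 291 and 186 and 106 to 359 elsewhere. Of 3 macrophage genes CSF1R and CD68 rose, with sums of 174.7 and 174.8 and 59.4 to 212 elsewhere, and the satellite cell genes PAX7 and MYF5 both rose, with sums of 179 and 222 and 26.8 to 117 elsewhere. Of the cardiac genes NPPA, TNNI3 and TNNT2 all 3 rose, with sums of 106 and 122 and 10.6 to 66.3 elsewhere. Whether these levels follow the cell types was not tested, nor was the part of these cells in the results.

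All 10 members had more of their windows in peaks in muscle than the mean of the other 7 tissues, at an adjusted p below 0.05 by limma on log2(value + 5). Of all 19638 genes tested, 29.9% were also called higher, 5873 against 2791 lower, and the median over all genes was 0.33 on the log2 scale. The members' median log2 difference was 2.40. With peaks at a q-value limit of 0.0001 the split over all genes turned to 1891 higher and 2540 lower, the median over all genes was -0.14, and 8 of 10 members were called higher. A stricter reading asks for a higher level than in each of the 7 tissues separately, which 3.16% of genes met. Of the members 6 met it: MYH1, MYH2, MYH4, ACTN3, TNNT3 and ACTA1. Both muscle libraries lay above all 14 others in 9 of 10 members, TNNI2 being the exception, where 17.3% of all genes showed this.

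**Figure D1:**
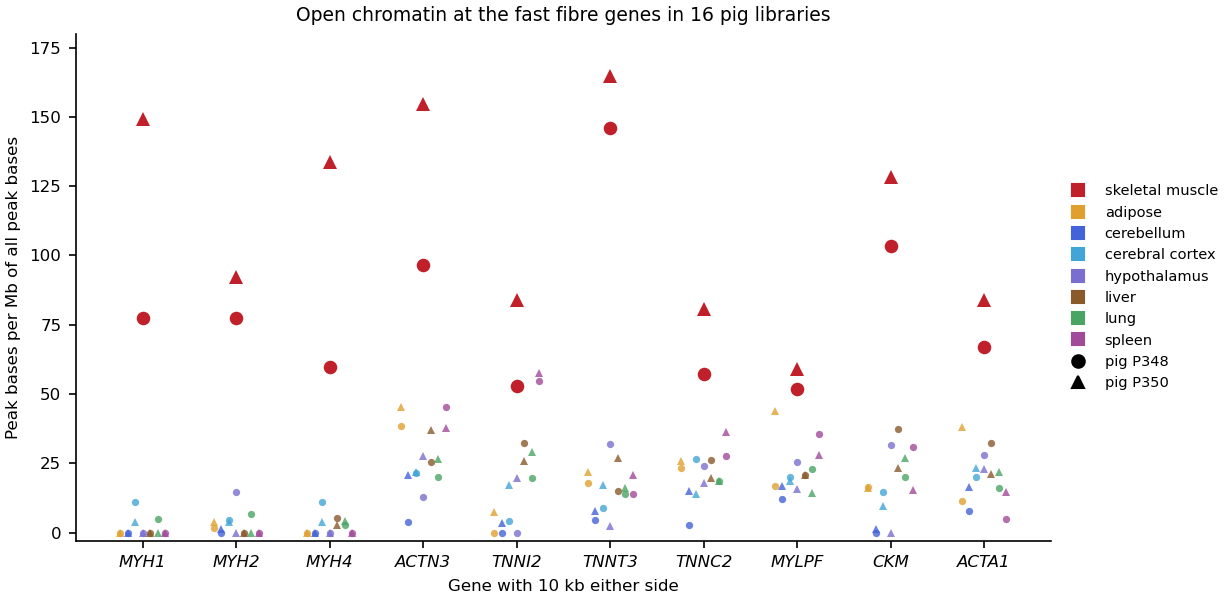
Peak bases per Mb of all peak bases over each gene with 10 kb either side, 1 point per library, with muscle in large red symbols, the other tissues in small coloured ones, circles for P348 and triangles for P350. The muscle points stand clear of the rest at the 3 MYH genes and TNNT3, while for TNNI2 the muscle value of P348 (53.0) lies below both spleen values.

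The myosin heavy chains had the largest differences of the list. MYH1 covered 77.4 peak bases per Mb in muscle of P348 and 149 in P350, while the others ranged from 0 to 11.05 with a median of 0 and 11 of 14 at 0. Its log2 difference was 4.25 (SE 0.28, limma adjusted p = 5.26e-07), and the lower muscle library was 7.0-fold above the highest other, cerebral cortex of P348. MYH2 had 77.4 and 92.1 in muscle against 0 to 14.8 elsewhere, with a median of 0.687. The difference was 3.70 (SE 0.39, limma adjusted p = 2.10e-05). MYH4, the gene of the fastest fibres, had 59.8 and 134 in muscle against 0 to 11.05, with a median of 0. Its difference was 3.84 (SE 0.27, limma adjusted p = 8.04e-07). None of the 3 overlapped between muscle and the other tissues, and each passed the test against all 7. Their windows overlap each other, so the same peaks were counted for more than 1 of them.

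MYLPF had the smallest difference. It had 51.7 in muscle of P348 and 59.1 in P350, against 12.05 to 43.9 with a median of 20.5, and the highest other value was adipose of P350. Its log2 difference was 1.2 (SE 0.28, limma adjusted p = 0.0044), and muscle was above 5 of 7 tissues, the nearest being spleen (mean 31.7, adjusted p = 0.2). The window also holds the TSS of SEPT1 and TBC1D10B. With bases within 2 kb of other genes' TSS left out, MYLPF had 33.5 and 34.6 in muscle and at most 16.99 elsewhere. With the q-value limit of 0.0001 its muscle values were 75.4 and 75.2, below 317 in adipose of P350, and the difference was 0.03 (adjusted p = 0.958). Without muscle of P350 it was 1.11 (adjusted p = 0.0785), a fit that takes the single muscle library left to vary like the other tissues, as do those without it below.

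Among the thin filament genes TNNT3 was the most separated. It had 146 and 165 in muscle, the highest of the 10 members, against 2.20 to 31.9 with a median of 15.5. The difference was 3.08 (SE 0.43, limma adjusted p = 0.000152), with liver the nearest tissue (mean 20.9, adjusted p = 0.0052). ACTA1 had 66.9 and 84.1 in muscle against 4.87 to 38.1 with a median of 20.7. Its difference was 1.78 (SE 0.35, limma adjusted p = 0.00144), and the nearest tissue, liver, was close to the threshold (mean 26.8, adjusted p = 0.0494). TNNC2 had 57.3 and 80.5 against 2.78 to 36.4 with a median of 21.5, and a difference of 1.57 (SE 0.31, limma adjusted p = 0.00162). It did not pass against spleen (mean 32.0, adjusted p = 0.11). Without muscle of P350 the TNNC2 difference was 1.34 (adjusted p = 0.0562). At the q-value limit of 0.0001 it was 0.87 (adjusted p = 0.146).

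TNNI2 was the member whose groups overlapped. It had 53.0 in muscle of P348 and 84.0 in P350, against 0 to 57.7 with a median of 18.3. Both spleen libraries, with a mean of 56.2, lay between the muscle libraries, and the difference from spleen was 0.23 (adjusted p = 0.878). Liver and lung followed with means of 28.9 and 24.4 and adjusted p-values of 0.266 and 0.147, and muscle was higher than the 4 remaining tissues. The log2 difference over all 7 was 2.04 (SE 0.50, limma adjusted p = 0.00562), and 1.73 without muscle of P350 (adjusted p = 0.109). The window holds the TSS of SYT8 and of LSP1, a gene of lymphocytes. With bases near other genes' TSS left out, the highest other value was 21.6, in spleen of P350, and both muscle libraries stood above it at 34.9 and 57.9.

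Peaks in muscle of P348 and P350 covered 28.5% and 33.6% of the ACTN3 window and 30.9% and 28.3% of the CKM window. Those of TNNT3 covered 36.8% and 30.65%. ACTN3 had 96.6 in muscle of P348 and 155 in P350 against 3.66 to 45.4 with a median of 25.9. Its difference was 2.1 (SE 0.34, limma adjusted p = 0.000462), and adipose was the nearest tissue (mean 41.9, adjusted p = 0.0371). The ACTN3 window holds the TSS of CTSF and ZDHHC24, and without bases near them it had 51.1 and 92.9 in muscle and at most 21.6 elsewhere. CKM had 103 and 128 against 0 to 37.3 with a median of 16.2, and a difference of 2.71 (SE 0.49, limma adjusted p = 0.000956). It missed the threshold against liver (mean 30.3, adjusted p = 0.0661) and passed against the other 6 tissues.

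**Figure D2:**
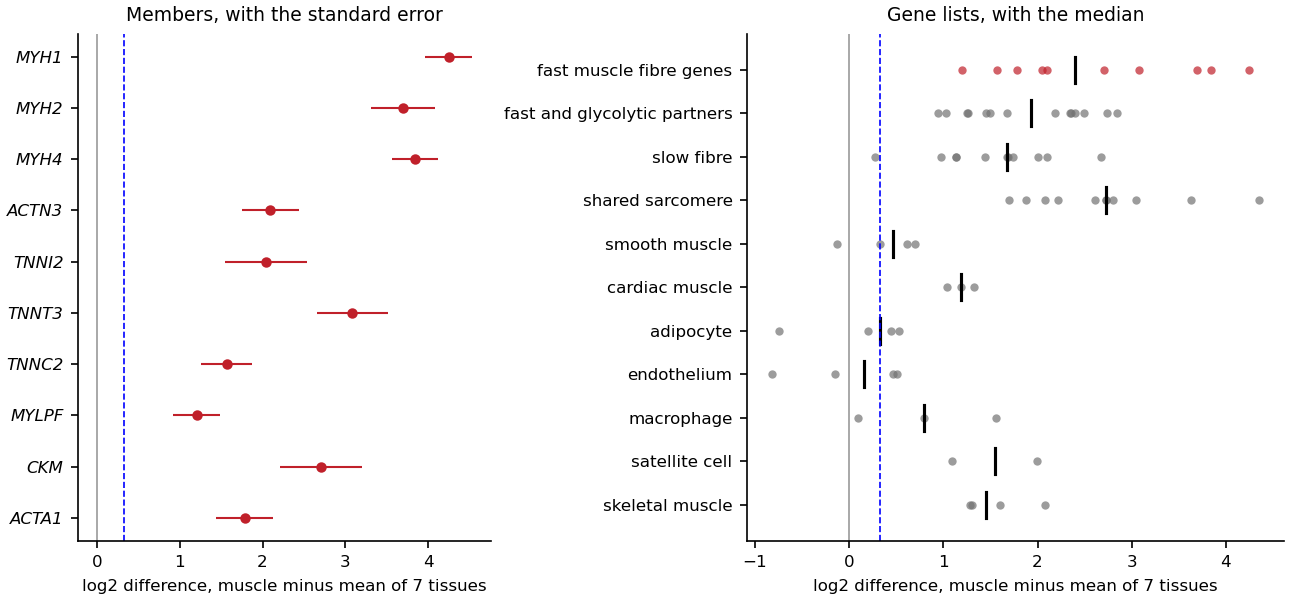
Left, log2 difference of each member between muscle and the mean of 7 tissues, with bars of 1 standard error; right, the same difference for each gene of the lists (points) with the list median (black bar). The grey line is 0 and the dashed blue line is the median of all genes tested, 0.33; every member lies to its right, from MYLPF at 1.2 to MYH1 at 4.25.

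Muscle of P350 was above muscle of P348 in 10 of 10 members, by a median ratio of 1.33, where 52.3% of all genes were. In peak bases without the division, P350 was higher in 5 of 10 members, and in 16.8% of all genes. MYH4 had the widest gap, with a ratio of 2.24 per Mb and 1.65 in bases, and TNNT3 the narrowest at 1.13 per Mb and 0.833 in bases. The list of P350 was the shortest of the 16. Within each animal the difference of muscle from the other tissues was positive for all 10 members. It ran from 1.12 (MYLPF) to 3.66 (MYH1) in P348 and from 1.29 to 4.83 for the same genes in P350, on the log2 scale. The share of all genes with a positive difference within an animal was not counted. Their median difference with both animals was 0.33.

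The other genes of the contractile and metabolic programme were counted in the same fit. There 29.9% of all genes tested were higher in muscle, and 3.16% were higher than in each tissue separately. Of 14 fast and glycolytic partners 13 were higher in muscle and none lower, with a median of 1.93. MYL1, the fast essential light chain, had the largest difference of these (2.85), followed by ATP2A1, the fast calcium pump (2.74), PHKA1, a phosphorylase kinase subunit (2.49), and RYR1, the calcium release channel (2.40). The smallest were PVALB, a calcium buffer (0.94, adjusted p = 0.0591), ENO3 (1.03) and PGAM2 (1.25), both glycolytic enzymes, and CASQ1, the calcium store protein (1.26). Of 11 slow fibre genes 10 were higher, with a median of 1.68. MYH7, the slow heavy chain, led them at 2.67, with 88.6 and 123 peak bases per Mb in muscle and at most 40.1 elsewhere, followed by MYOZ2 (2.1), MYL2 (2.01) and TNNI1 (1.74). CASQ2, the slow and cardiac calsequestrin, did not pass (0.28, adjusted p = 0.341), and TNNC1 (0.98), TNNT1 (1.13) and TPM3 (1.13) were next. All 11 genes listed as shared sarcomere genes were higher, also against each tissue separately, with a median of 2.73. They ran from TPM2 (1.69) and TPM1 (1.88), DES (2.08) and MYOM2 (2.21) to TTN (3.62) and NEB (4.36), giant proteins of the sarcomere, with MYOT (3.05) and ACTN2 (2.80) next to those. No test compared the fast list with the slow one, and whether each gene keeps to the fibre type of its list was not tested.

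The 3 fast myosin genes were then read as 1 locus of 108 kb, chr12:55180545-55288820, from 10 kb past the end of MYH4 to 10 kb upstream of MYH2. Muscle held 12 peaks there in P348 and 20 in P350, and the other libraries 0 to 3. In muscle these covered 140 and 271 peak bases per Mb, or 12.8% and 18.2% of the locus. The others had 0 to 15.5 with a median of 3.21, and 4 of 14 libraries, both of spleen, 1 of cerebellum and 1 of hypothalamus, had no peak at all. The 5 highest of the others were cerebral cortex of P348 (15.5), hypothalamus of P348 (14.8), lung of P348 (11.6), cerebral cortex of P350 (7.65) and liver of P348 (5.29). The log2 difference between muscle and the 14 others was 4.52. The exact two-sided permutation test over all 120 choices of 2 libraries gave p = 0.00833, the smallest value this design allows. The exact permutation of tissues within each animal gave p = 0.0156, again the smallest possible. Both tests treat libraries of the same tissue as separate, exchangeable units, although only 8 tissues are compared.

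**Figure D3:**
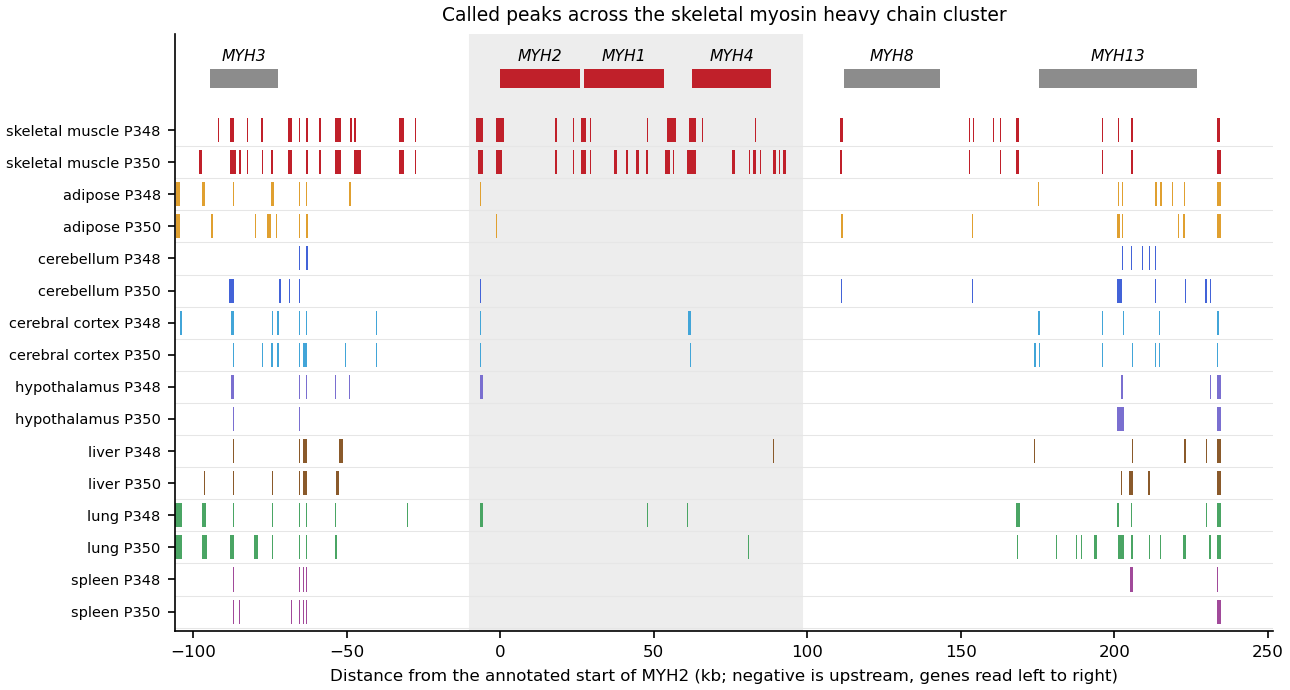
Peaks called in each of the 16 libraries (rows) across the skeletal myosin heavy chain cluster, by distance in kb from the annotated start of MYH2, with the genes as bars at the top (the 3 fast genes in red) and the fast locus shaded. Within the shaded stretch muscle has 12 and 20 peaks and no other library more than 3, whereas at MYH13 and MYH3 peaks occur in most tissues.

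Across the locus 11 merged regions, made by joining overlapping peaks of all libraries, were open in both muscle libraries, and 6 of them (54.5%) were open in no other library. Over the whole genome 12.4% of the 86150 regions open in both muscle libraries were in no other. The region with the highest fold, chr12:55260449-55261011, lies within MYH2 with 127 of its 563 bases in a coding exon, 17.3 kb downstream of the nearest MYH2 start and 8.95 kb upstream of MYH1. Its fold enrichment over background, as the authors' caller gave it, was 12.05 in P348 and 10.7 in P350, and its middle is printed above. The second was the region over the outer MYH1 start, chr12:55250861-55252674, with folds of 6.90 and 5.05. The others in muscle alone were a short region of 273 bases beside the inner MYH1 start (4.11 and 3.76), an intronic region of MYH2 of 289 bases (3.33 and 3.48), a region of 3592 bases between MYH1 and MYH4 (3.84 and 3.95) and a region within MYH4 (3.05 and 2.90). The MYH2 start (3.88 and 3.93) was also open in 1 adipose library, and the MYH4 start (3.15 and 2.99) in 3 libraries of cerebral cortex and lung. A region 5.57 kb upstream of MYH2 was the most shared, with peaks in 6 other libraries.

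The reads were pairs of 40 bases, the authors removed alignments of low mapping quality, and the myosin genes resemble each other. Of all 40-base words in MYH1, 30.4% occurred more than once within the cluster, as did 28.7% in MYH4 and 10.0% in MYH2, against 4.64% in MYH3, 6.53% in MYH8 and 3.85% in MYH13. Their part in the number of peaks called was not tested. Of the 29 regions of the cluster open in both muscle libraries 23 held none of them, and the highest share was 15.2%.

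The neighbouring myosins were less separated. MYH8, the perinatal myosin (annotated as LOC110255887), had 11.8 and 13.4 in muscle and at most 9.50 elsewhere, with 12 of 14 at 0, and a log2 difference of 1.66 (limma adjusted p = 0.000631). Its peak at the start had folds of 9.44 and 10.2 in muscle, and weaker ones of 3.25 and 2.57 were called in adipose and cerebellum of P350. MYH3, the embryonic myosin (LOC396711), had 47.9 and 88.0 in muscle against 6.39 to 45.9, a difference of 1.13 (limma adjusted p = 0.0153), and no TSS peak in either muscle library. MYH13, the extraocular myosin (LOC100736982), had 33.4 and 39.4 against 10.7 to 52.9 and did not pass (difference 0.30, limma adjusted p = 0.368).

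Every member had a peak within 2 kb of an annotated TSS in both muscle libraries, as did 71.2% of all genes. MYH1 and MYLPF had one in no other library, which 0.172% of all genes, 35 in number, showed. MYH2 shared it with adipose of P350 only, and MYH4 with both libraries of cerebral cortex and lung of P348. The other members had TSS peaks in 6 (TNNT3), 8 (CKM), 9 (TNNI2), 12 (ACTA1), 13 (TNNC2) and 14 (ACTN3) of the 14 other libraries. The ACTN3 region also lies within 2 kb of the TSS of ZDHHC24, and those of TNNT3 within 2 kb of the TSS of LOC110259216. At MYLPF the start itself was covered by a region of 454 bases in muscle alone (folds 2.95 and 2.94), while the shared regions on either side, at TBC1D10B and past the end of the gene, were called in all 14 others. The gene model of TNNC2 is partial at its 5′ end, so its annotated start may lie inside the gene, and a region 710 bases upstream was open in both muscle libraries and 1 adipose library only. With q-value limits of 0.01 or 0.0001, 5 members had TSS peaks in muscle alone: MYH1, MYH2, MYH4, MYLPF and CKM.

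The widest muscle peaks within 2 kb of the starts were broad. They need not cover the start, so the peaks compared between libraries are not always the same one. The widest TSS peak of ACTN3 spanned 3494 and 3442 bases in muscle, and 370 to 1346 in the 14 others. Its highest fold was lower in muscle, 3.31 and 3.40, than in any of the 14 others, which reached 12.6 in cerebral cortex of P350. The region also lies within 2 kb of the TSS of ZDHHC24, and which gene's start the peaks belong to was not tested. At MYH2, MYH4, TNNI2 and CKM the highest fold was instead above every other library in both muscle libraries, at CKM 3.24 and 3.20 against at most 2.94. TNNT3, TNNC2 and ACTA1 had higher folds elsewhere than in either muscle library. These reached 3.24 in liver of P348 at TNNT3, and in hypothalamus of P348 5.51 at TNNC2 and 4.23 at ACTA1. CKM showed 3225 and 3242 bases against at most 1762, TNNC2 3425 and 2670 against at most 1270, TNNI2 2473 and 2275 against at most 1148 and TNNT3 2489 and 2538 against at most 947. The TNNC2 widths in muscle are from the region 710 bases upstream. Those of the other libraries are mostly from a region within the gene, called in 13 of them. Of the 8 members with a TSS peak also outside muscle, 7 had a wider one in both muscle libraries than in any other, a comparison chosen after the values were seen. Of all 14484 genes with such peaks 12.8% did. TNNC2 is among the 7, although different peaks are compared there. ACTA1 was the exception, with 4101 and 2995 in muscle and 3130 in adipose of P350. The members' median width was 2614 and 2604 bases in the muscle libraries, against 1238 and 1117 for all of these genes. The members' medians include MYLPF at 2388 and 1970, from regions beside its start.

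**Figure D4:**
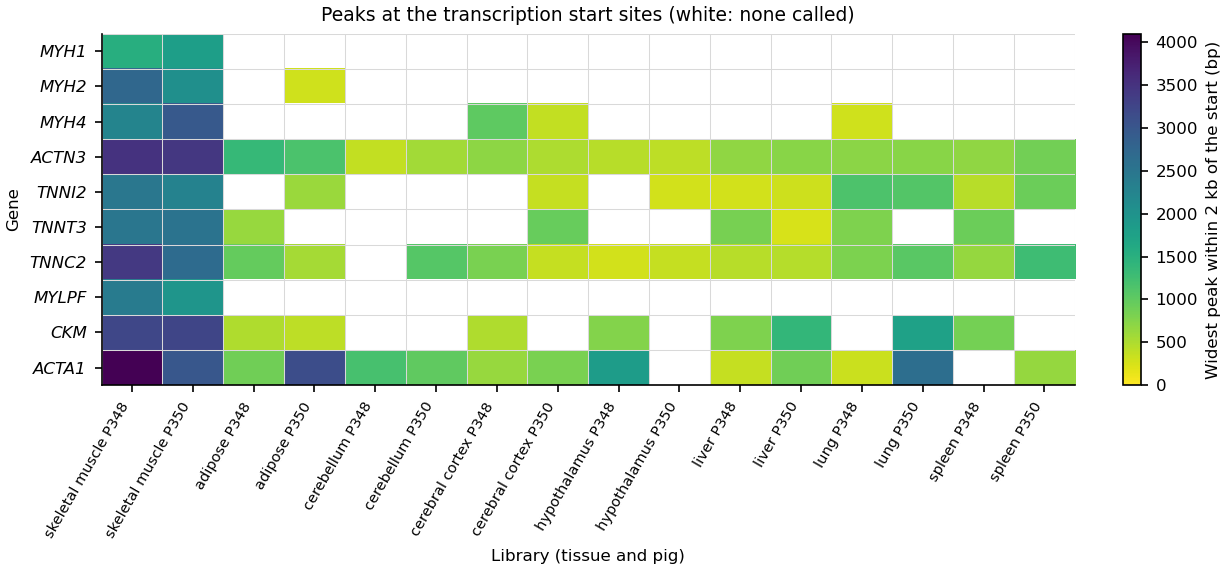
Width in bases of the widest peak within 2 kb of a TSS for each member (rows) and library (columns), with white where none was called. The muscle columns are filled for all 10 genes, from 1532 to 4101 bases, MYH1 and MYLPF are white in every other library, and ACTN3 is filled in all 16. The MYLPF widths are from regions beside its start. These are called in all 14 other libraries too, but there farther than 2 kb from the start.

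Along the gene bodies ACTA1 was the only member with more than 50% of its length in peaks in both muscle libraries (65.4% and 66.4%), which 1.5% of all genes showed. It reached 85.02% in another library, with a median of 24.9% there. TNNC2 covered 20.9% and 79.4% in muscle, against a median of 37.3% and at most 81.6% elsewhere, so P348 lay below the median of the others. TNNI2 covered 41.3% and 51.6%, against at most 47.1% elsewhere. TNNT3 held 40.4% to 44.4% in muscle and at most 10.1% elsewhere, ACTN3 28.9% and at most 10.1%, and CKM 39.2% to 41.4% and at most 20.6%. The long MYH genes held 4.69% to 15.96% in muscle and at most 2.39% elsewhere. ACTA1 spans 3037 bases, TNNC2 1142 as annotated and TNNI2 2318, against 25750 to 25915 for the MYH genes.

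Over the 10 windows 46 separate regions were open in both muscle libraries, and 9 of them (19.6%) in no other, against 12.4% over the genome. The myosin locus held 6 of these, and the 7 other members 3 of 35 (8.57%), a share below that of the genome. Each region was placed once, those shared by myosin windows by the first of MYH1, MYH2 and MYH4 to hold them. Counted so, 14 of the 46 lay within 2 kb of a TSS of the member, 10 upstream, 14 downstream and 8 within the gene overlapping an exon. The MYH4 start is thus among the downstream regions, and the muscle-only regions within MYH2 are among the upstream ones, by their place at MYH1. The 3 muscle-only regions outside the myosin locus were the MYLPF start, a region of 386 bases in CKM (1.79 and 1.56) and chr2:1320773-1321361, past the end of TNNT3 (2.90 and 2.86). The last was also the TNNT3 region with the highest fold. For ACTA1 that place was held by chr14:60405019-60406486, 6.17 kb upstream, with folds of 6.13 and 5.57 and at most 3.92 in 6 other libraries. For ACTN3 it was chr2:5880757-5882544, 6.98 kb upstream, with 4.41 and 5.18 in muscle and at most 3.16 in 9 others. For CKM it was chr6:51726380-51728473 near the start of KLC3 (3.71 and 3.85), and for TNNI2 chr2:1245043-1246372 near the start of SYT8 (4.26 and 4.63), with 4 and 6 other libraries. For TNNC2 and MYLPF the strongest regions were the promoters of UBE2C (7.71 and 6.71) and TBC1D10B (3.20 and 3.23), open in all 14 others with folds up to 15.1 and 7.74.

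The genes outside all lists whose levels followed the members' mean most closely over the 16 libraries were RPS6KA3 (Pearson's r = 0.96), RMDN1 (0.96), CTBP2 (0.96), KLHL24 (0.96) and UBE2D1 (0.96). In all 5 the lower muscle library stood above the highest other library, for example 88.1 against 39.2 peak bases per Mb at RPS6KA3. Among all genes 17.3% showed this. The 5 were picked for following members that are high in muscle, so it is not a separate result. The 16 points share the 2 animals and the division by each list's length, and the coefficients are a description.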

How the data were processed

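ATAC-seq peak lists of 16 pig libraries were used, 1 per library and not pooled; 15 cattle libraries were not used here. The authors trimmed reads (Trim Galore 0.4.5), aligned them to Sscrofa11.1 (BWA 0.7.17), filtered on mapping quality (SAMtools 1.10) and called broad peaks with MACS2 at a q-value limit of 0.05; Picard 2.18.17 is stated for ChIP-seq reads. A shift of read ends is not given in the sources used here. The deposited columns hold a score, a ratio (fold enrichment over local background), a −log10 p-value and a −log10 q-value, each an average over the peak. Peak calls depend on depth, and read depth was not used here, so no counting interval is given; the lack of a called peak does not show closed chromatin.

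Peak bases per gene window were divided by all peak bases of the list, giving peak bases per Mb. Genes with a peak in at least 2 libraries were fitted with limma 3.58.1 (R 4.3.3) on log2(value + 5), tissue means, muscle against the mean of 7 tissues and against each, with Benjamini-Hochberg adjustment over all genes; the fit was tested on simulated data. The myosin locus was tested by exact two-sided permutation. Libraries were grouped by labelled tissue, with the animal as replicate. Same-named libraries come from one animal and are paired by that; their deviations from the tissue means correlated between -0.22 and 0.15 over pairs of tissues. With 2 littermates the p-values of the limma fits of tissue means measure the spread between these animals within tissues. The permutation p-values of the myosin locus rank the muscle labels among rearranged libraries and do not measure that spread. Where the other libraries were fitted as a single group, the spread also holds differences between tissues.

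All members, the 3 other myosins of the cluster, up to 4 genes with the largest and smallest differences of each pathway list, the 5 most alike genes and the strongest muscle region of each window were named. Members and lists were chosen with earlier results of these data known. MB and MYH6 were listed but not matched. The promoter sequence of MYLPF is not reported here. Alternatives covered q-value limits, list length, unit, window, other genes' TSS, pseudocount, filter, model, animal block and libraries left out. Python 3.11.15 was used for the remaining steps.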

Additional observations from a re-analysis of the deposited data

How the results depend on the processing

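Over 30 alternatives per member, all 300 log2 differences stayed positive and 9 lost significance by limma, 3 at TNNI2, 2 at TNNC2 and 4 at MYLPF; TNNI2 lost it by number of peaks (0.86, adjusted p = 0.0654) and with the 14 others as 1 group (adjusted p = 0.0776), and MYLPF with the q-value limit of 0.01 (0.70, adjusted p = 0.107) and the 50 kb window (0.50, adjusted p = 0.0637). Members higher than the mean of the other tissues numbered 7 to 10 with single libraries left out, 7 being without muscle of P350 (the lone muscle library is assumed to vary like the other tissues), and those above every tissue 4 to 7, with MYH1, MYH2 and MYH4 among them in each alternative that fitted tissue means. The share of all genes whose difference stayed positive in every alternative was not counted. With the 7 tissue contrasts 8 members passed at a pseudocount of 20 and 4 at 1. Members with both muscle libraries above the rest numbered 6 at the q-value limit of 0.0001 and 10 in lists of equal length. TSS peaks in muscle alone rose from 2 members to 5 at both stricter q-value limits, and stood at 2 to 3 with libraries left out. Members with over 50% of the body in peaks numbered 1 to 3, the 3 being without muscle of P348.

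The myosin locus difference ranged from 3.15 to 5.71. With 1 muscle library left out it was 4.06 to 4.99 at an exact permutation p = 0.0667, the smallest that 15 choices allow. With the animal as a block it was 4.52, and 10 members and 6 were called as before, so the block changed no call of a member; over all genes it called 5684 higher and 565 above every tissue. Over all genes 5873 were called higher, against 2985 and 1891 at the q-value limits of 0.01 and 0.0001, 3853 in lists of equal length, 3840 without division, 1950 with 1 group, and 3528 and 1814 without muscle of P348 and P350. The share of higher among the calls was 67.8%, against 42.7% at 0.0001 and 57.6% with 1 group. Genes above every tissue numbered 620, and 122 to 1007 under the alternatives that fitted tissue means. The causes were not tested. Peak calls depend on depth, which was not used here, and its part in these values was not tested.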

Other observations

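The interval between MYH2 and MYH3, where a distal enhancer of the fast myosin genes has been described in mouse, was read after its values were seen. Between the 10 kb windows of the 2 genes 13 merged regions were found. Of these 5 were open in both muscle libraries, and 4 of the 5 in no other library. Muscle had 8 peaks there in P348 and 6 in P350, and no other library more than 2. The 4 muscle-only regions lay 27.4 kb (folds 8.69 and 6.92), 31.3 kb (3.97 and 4.16), 45.3 kb (5.36 and 4.36) and, near MYH3, 58.4 kb (6.46 and 6.35) upstream of MYH2.

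At the other end of the cluster, upstream of MYH13, 2 regions of 384 and 317 bases were also open in both muscle libraries and no other, with folds of 8.46 and 10.9 and of 4.80 and 5.13. An intronic region of MYH13, shared with cerebral cortex, reached 11.5 in P348 and 13.1 in P350. The region within MYH2 was above it in P348 (12.05) and below it in P350 (10.7). Over the whole cluster of 341 kb, 29 of 74 merged regions were open in both muscle libraries and 13 of the 29 in no other. What these regions do was not tested.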
